A study of Mus musculus with 4 samples.

Results

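First introns were examined in the authors' lists of regions that carried more or less H3K9me3, a histone mark of silent chromatin, after loss of Arid1a from mouse microglia. Members were all listed regions whose deposited annotation placed them in intron 1 of a transcript, and the gene of that transcript is called the host. There were 517 such regions in 460 host genes, out of 5432 listed regions, and 1428 further regions lay in later introns. Control embryos were Arid1a fl/fl, and knockout (KO) embryos were a conditional knockout of the same gene that the labels name for Cx3cr1, a gene of microglia, all on C57BL/6. The Arid1a protein is a DNA-binding part of SWI/SNF, a complex that remodels chromatin. Microglia, the resident macrophages of the brain, were sorted from the telencephalon, at embryonic day 14 by the sample labels (E14.5 in the protocol). The mark was mapped by CUT&Tag, in which an antibody tethers a transposase that tags the DNA around marked nucleosomes. Each genotype had 1 H3K9me3 library and 1 library with control IgG, so no difference has a replicate check and none was tested. The embryos' sex, their number per library, the sort gate and the form of the Cre were items not given in the sources used here, and cells that kept Arid1a cannot be told apart.

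The first intron follows the first exon of a transcript and is often the longest intron of a gene. It commonly holds enhancers and alternative transcription starts. H3K9me3 is laid down by methyltransferases such as SETDB1 and the SUV39H enzymes, is bound by HP1 proteins, and in gene bodies is often found over transposable elements. The lists hold regions rather than expression values, so a region in a gene does not say whether that gene was active.

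Sequences are shown for the annotated starts closest to several members, since no genome of the build was at hand to read the regions themselves. Of the 517 regions, 6 had a microRNA as the nearest start. Both first-intron regions of Tenm4, the gene of a synaptic teneurin, were nearest to Mir708, which RefSeq places on chromosome 7. Region coordinates are the files' own, read as GRCm38, and the authors' peak score has no stated scale, which the lists of higher and lower regions may not share. The lower region, from 96231110 to 96231742 with a score of 2.22, lay 17682 bp upstream of it, and the higher region, from 96276940 to 96277709 with a score of 3.87, lay 27516 bp downstream. The Cdk17 region, in the higher list with a score of 2.82, lay 41174 bp downstream of Mir1931 on chromosome 10. The mature sequences from RefSeq (GRCm38.p6) follow, 5′ to 3′, with the seed, bases 2 to 8, in capitals. They lie on the plus strand at chr7:96249450-96249472 (5p arm of miR-708), chr7:96249496-96249517 (3p arm) and chr10:93162879-93162900 (miR-1931).
mmu-miR-708-5p: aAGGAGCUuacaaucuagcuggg
mmu-miR-708-3p: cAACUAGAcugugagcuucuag
mmu-miR-1931: aUGCAAGGgcuggugcgauggc
None of these seeds is shared between the 3 mature forms.

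The promoters of 3 hosts are shown because the start given in the deposited row was the same base as the RefSeq start, so the distances in those rows were measured from the printed windows. For Rora this holds for its higher region, and the lower ones were measured from an internal start. Each runs from 250 bp before to 50 bp after the start, 5′ to 3′ on the strand of the gene, with every CG dinucleotide in capitals. Among all 32851 RefSeq promoter windows of this length, the median number of CG was 7 and 5.43% held none. The window of Cldn34d (GRCm38.p6, chrX:76602875-76603174, minus strand) held 0. That of Intu (chr3:40540517-40540816, plus strand) held 19, a number reached by 28.1% of windows. That of Rora (chr9:68653536-68653835, plus strand) held 28, reached by 14.2%.
Cldn34d: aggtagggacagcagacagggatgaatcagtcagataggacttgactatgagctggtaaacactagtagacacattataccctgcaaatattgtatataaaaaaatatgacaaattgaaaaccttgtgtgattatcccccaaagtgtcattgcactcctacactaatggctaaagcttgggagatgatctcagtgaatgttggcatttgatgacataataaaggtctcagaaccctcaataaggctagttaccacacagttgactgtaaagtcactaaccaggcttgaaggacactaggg
Intu: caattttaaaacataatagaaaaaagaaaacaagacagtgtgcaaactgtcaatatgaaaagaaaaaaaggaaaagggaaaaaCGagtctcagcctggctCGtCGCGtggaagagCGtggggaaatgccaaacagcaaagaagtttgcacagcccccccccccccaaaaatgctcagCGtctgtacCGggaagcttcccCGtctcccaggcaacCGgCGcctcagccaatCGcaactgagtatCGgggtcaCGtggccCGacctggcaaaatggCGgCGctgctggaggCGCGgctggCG
Rora: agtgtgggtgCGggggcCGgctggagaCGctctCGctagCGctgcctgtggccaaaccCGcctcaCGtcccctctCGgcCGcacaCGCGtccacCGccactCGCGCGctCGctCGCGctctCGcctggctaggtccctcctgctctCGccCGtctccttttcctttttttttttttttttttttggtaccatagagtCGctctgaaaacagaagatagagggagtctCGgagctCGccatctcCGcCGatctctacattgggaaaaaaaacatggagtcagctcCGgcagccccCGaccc
Cldn34d and Intu held some of the highest-scoring first-intron regions, and Rora held regions of both directions. No listed region in these introns covers the printed windows, so the sequences describe the starts and not the marked DNA.

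The authors' lists placed 319 first-intron regions as higher in KO and 198 as lower. The share higher was 61.7% (57.4 to 65.9, exact 95% binomial interval, counting error only), against a background of 64.2% higher and 35.8% lower over all listed regions. The share was 64.3% (61.7 to 66.8) in later introns and 64.6% (62.9 to 66.1) outside introns. The intervals overlap, so first introns were not set apart by direction at these counts. Of intronic regions, 25.8% (23.4 to 28.3) of those higher and 28.0% (24.7 to 31.4) of those lower lay in first introns.

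In the higher list, Mdga2 held the first-intron region with the highest score. Mdga2 encodes a membrane-anchored protein that binds neuroligins and restrains synapse formation. The score there was 88.1, and the region lay on chromosome 12 from 67059204 to 67059802 in intron 1 of 16. The nearest start was not that of Mdga2 but of the predicted gene Gm47987, 63118 bp away. A second higher region of Mdga2, from 67109530 to 67110177, scored 3.28. Mdga1, the paralogue, held a lower region of score 5.57 on chromosome 17 from 29858517 to 29858830.

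Next in the higher list came Cldn34d, a claudin gene, with a score of 42.1 on chromosome X from 76598607 to 76599135, 3789 bp from the start of its transcript. Kctd16, which encodes an auxiliary subunit of GABA-B receptors, scored 19.0, Qpct, which encodes glutaminyl cyclase, 11.3, and Intu, a planar polarity and cilium gene, 10.4. Cldn34d, Kctd16 and Intu each had a host transcript with 1 intron. The clone gene AC114585.1 scored 8.21, the membrane-type metalloproteinase gene Mmp17 7.68, and the potassium channel gene Kcnk2, the ErbB4 ligand gene Nrg3 and Tmem178 shared 6.66. Among predicted genes, Gm20388 reached 12.9.

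In the lower list, the highest first-intron score was 8.05, at the zinc finger gene Zbtb7c on chromosome 18 from 75869248 to 75869519. Among hosts with a gene name, Dcc, the gene of a netrin receptor in axon guidance, followed with 7.36, and Pacs1, a gene of membrane traffic, with 6.35. The predicted gene Gm31243 (7.10) and the clone gene 2610027F03Rik (6.17) also ranked near these. The vomeronasal receptor gene Vmn2r100 scored 6.13, Itih5 5.99 and the PAK family kinase gene Pak7 5.70. Prr16 and Smad3, a transducer of TGF-beta signals, shared 5.20, and Cdyl2, whose chromodomain binds methylated H3K9, scored 5.08. Within the higher list, 6 first-intron regions (1.88%) scored 10 or more, against 1.18% of all its regions. Within the lower list 0 did, against 0.977% of all its regions.

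The scores came in steps. The 319 higher members had 69 distinct scores and the 198 lower members 64, of which 3 occurred in both lists. The most common was 1.95 among higher members (46 regions, 14.4%) and 2.22 among lower members (28 regions, 14.1%). Scores rank regions within a list, ties are frequent, and no difference between the lists is read from them. The median score of higher members was 2.52 (2.52 to 2.82) and that of lower members 2.52 (2.22 to 2.86).

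**Figure D1:**
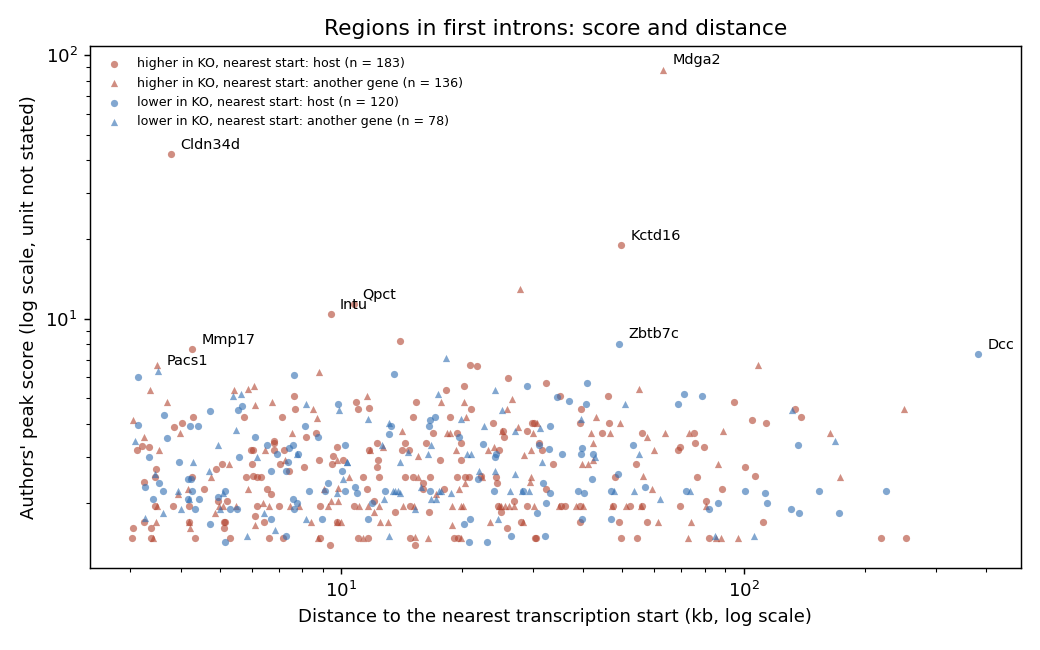
Authors' peak score (log scale, unit not stated) against the distance in kb to the nearest transcription start (log scale) for each of the 517 first-intron regions. Colour gives the list and shape whether the nearest start belonged to the host; most points lie below a score of 10 at every distance, and Mdga2 (88.1) and Cldn34d (42.1) stand above the rest of the higher list. The lists may not share a score scale.

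First-intron regions lay at a median of 15549 bp (13110 to 19049) from the nearest transcription start if higher and 14346 bp (11696 to 18227) if lower. For later-intron regions the medians were 25694 bp (23991 to 27929) and 23278 bp (20455 to 27815). Regions within 3 kb of a start were annotated as promoters, and the nearest first-intron region lay at 3034 bp. Among regions with the start of a named host nearest, the closest was that of Klhl8 (3034 bp, higher, score 1.48), followed by Unc79 (3123 bp, higher, 3.17) and Trim50 (3133 bp, lower, 3.96). Of the same regions, the farthest were those of Slc25a21, a mitochondrial carrier gene (225390 bp, lower, 2.22), Csmd1 (252520 bp, higher, 1.48) and Dcc (382667 bp, lower, 7.36).

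By distance, the share higher was 60.3% (53.0 to 67.3) of 189 regions between 3 and 10 kb, 63.8% (56.4 to 70.7) of 185 between 10 and 30 kb and 63.2% (53.8 to 72.0) of 117 between 30 and 100 kb. Beyond 100 kb, 13 regions were higher and 13 lower, a share of 50.0% (29.9 to 70.1), where later introns had 130 higher and 54 lower, 70.7% (63.5 to 77.1). The intervals of these shares overlap.

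**Figure D2:**
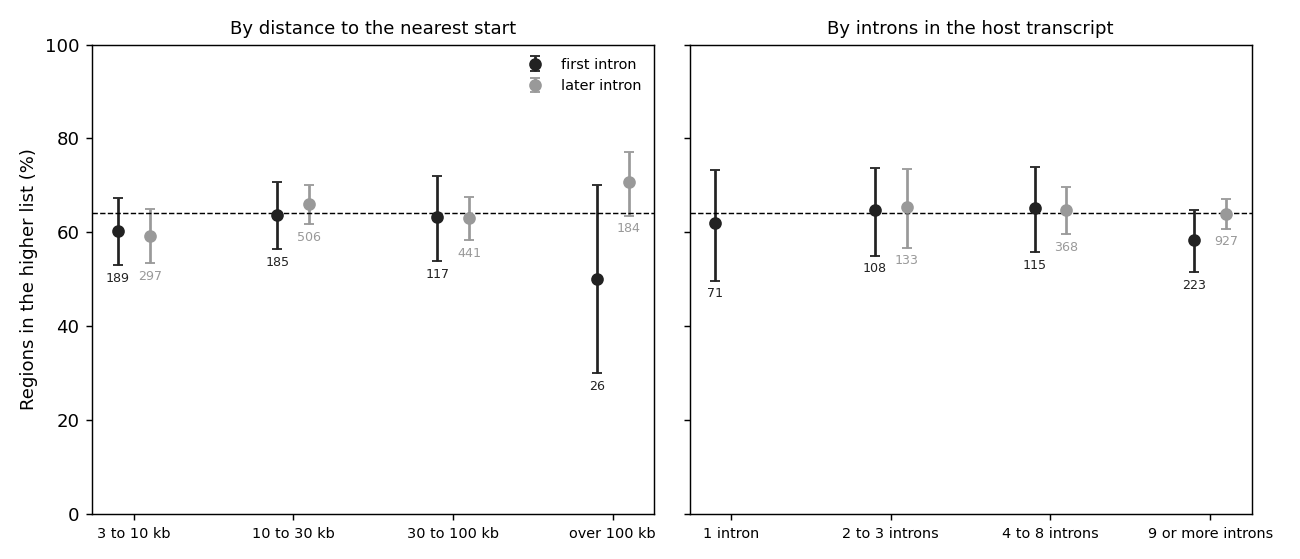
Share of regions in the higher list (%) by distance to the nearest start (left) and by the number of introns in the host transcript (right), for first introns (black) and later introns (grey). Bars are exact 95% binomial intervals, numbers under the bars count regions, and the dashed line marks 64.2% over all listed regions; every interval includes it, and that of first-intron regions over 100 kb away (50.0%) is the widest.

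The gene that holds a first-intron region was often not the gene with the nearest start. The host had it for 303 of the 517 regions, 58.6% (54.2 to 62.9), against 37.3% (34.7 to 39.8) in later introns. The rule itself places members next to a start of the host. Where the exact host transcript was nearest, in 202 regions, every region lay downstream of its start, as a place in its intron 1 requires. In 27 of the other 101 regions, the region lay upstream of a start of another transcript of the same gene, as for Rora, where 1 region lay 172714 bp and another 137136 bp upstream of an internal start. Of the 214 regions with another gene nearest, 144 (67.3%) had a predicted gene there. Of the 169 whose host matched RefSeq on the same chromosome, 118 (69.8%) had that nearest transcript wholly inside the host. An intron number holds for the transcript named in the row, and the same place can be a later intron or outside the gene in another transcript.

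Hosts of first-intron regions had fewer introns than hosts of later-intron regions. The rule favours this, since a transcript with 1 intron can hold only first-intron regions and transcripts with more introns offer more later ones. The median intron number was 6 (5 to 7) for higher and 8 (6 to 9) for lower members, against 12 in both lists for later introns. In 71 regions (13.7%) the host transcript had 1 intron in all, 44 higher and 27 lower. Hosts of 2 introns held 58 regions in the first and 54 in the second, and hosts of 3 introns held 50, 44 and 35 from the first to the last. In hosts with 9 or more introns, 19.4% (17.1 to 21.8) of 1150 regions were in the first. The 402 matched hosts had a median length of 129 kb (106 to 146) and the 1101 matched hosts of later introns 127 kb (115 to 144), and these intervals overlap.

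Single-intron hosts, beside those named above, included the neurotrophin gene Ntf3 (lower, 2.38), the zinc finger gene Tshz3 (lower, 3.45), Mblac2 (lower, 4.16), Prr16 (lower, 5.20) and AI427809 (higher, 4.01). Gpr39, a zinc-sensing receptor gene, held 2 higher regions (3.69 and 3.76).

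RIKEN clones, transcripts first found in a mouse cDNA collection, held 34 higher and 7 lower first-intron regions, on 16 chromosomes and in 38 genes. The share higher was 82.9% (67.9 to 92.8), against 61.7% over all first-intron regions. In later introns RIKEN clones held 55 and 17, 76.4% (64.9 to 85.6). Examples were 4921539H07Rik (6.30) and 1700112D23Rik (5.39) in the higher list and 9530026P05Rik (4.51) in the lower list. Predicted genes held 58 and 39, 59.8% (49.3 to 69.6), and hosts with a gene name 227 and 152, 59.9% (54.8 to 64.9). The RIKEN group was singled out after its counts were seen and was already apparent in earlier results of these data, so its interval is not independent evidence. RefSeq protein-coding hosts held 374 regions (72.3%), of which 60.2% (55.0 to 65.2) were higher, and RefSeq long noncoding hosts 72, of which 70.8% (58.9 to 81.0) were higher.

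The first intron of A830052D11Rik showed how host and nearest start can differ. Its higher region (4.12, chromosome 18 from 32373861 to 32374167) lay 3050 bp upstream of Bin1, a gene of membrane shaping. Gm20388 held most first-intron regions of any host, 6 higher and 2 lower over 3846 kb of chromosome 8. All 8 also lay over another RefSeq gene, among them the DNA repair gene Fanca and Zcchc14. In all, 45 of the 517 regions (8.70%) lay over a further RefSeq gene, so their host is uncertain.

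On chromosome X, 11 first-intron regions were higher and 1 lower, 91.7% (61.5 to 99.8), against 61.0% (56.6 to 65.3) on the autosomes. On X the share was 78.1% (60.0 to 90.7) in later introns and 79.0% (70.8 to 85.8) outside introns. Dock11 (1.95), Enox2 (1.95), Grpr (1.48) and the synaptic adhesion gene Il1rapl1 (1.69) each held a higher region. A higher region in Gm26992 (5.39, from 103455535 to 103455849) also lay over Tsix, the antisense gene of Xist. The lower region was in Fhl1 (4.76), a muscle LIM protein gene. The X genes were chosen for naming with their values known.

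Synaptic adhesion and scaffold genes held 16 higher and 12 lower first-intron regions in 21 hosts, 57.1% higher (37.2 to 75.5), against 61.7% over all first-intron regions. Beside Mdga2 and Nrg3, the scaffold gene Magi1 (5.73) and the glial guidance gene Astn1 (5.41) were higher, and beside Mdga1, Csmd2 (4.87) and Astn2 (4.16) were lower. In later introns the same list held 58 and 30.

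Ion channel and neurotransmitter receptor genes held 13 higher and 3 lower regions, 81.2% higher (54.4 to 96.0), against 61.7% over all first-intron regions, which lies within that interval. Their later introns held 32 and 18, 64.0% (49.2 to 77.1), an overlapping interval, and the difference was not tested. The higher ones were led by the potassium channel genes Kcnk2 (6.66) and Kcnma1 (5.08) and the acid-sensing channel gene Asic2 (3.69 and 1.69). The lower ones were in Cacng2 (3.31), Ano3 (2.30) and Kcnip4 (2.19), and Ano3 and Kcnip4 also held higher regions.

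The 124 listed transcription factor genes held 3 higher and 7 lower regions in 8 hosts, 30.0% higher (6.67 to 65.2). That interval includes the 61.7% of all first-intron regions. Other factor genes among the hosts were not in the list, such as Rxrg and Npas2 (higher) and Mecom (lower). The count therefore depends on the genes listed. Later introns of the listed genes held 23 and 8, 74.2% (55.4 to 88.1). Lower regions were in Smad3 (5.20), Sox6 (4.76), Tshz3 (3.45), the Notch coactivator gene Maml3 (2.65), the Hippo pathway factor gene Tead1 (2.22) and Rora (2 regions of 1.83). Higher regions were in Maml2 (2.93), Esrrg (1.95) and Rora (1.95). The intervals of first and later introns overlap, and the difference was not tested. Axon guidance genes held 2 higher and 4 lower regions, 33.3% higher (4.33 to 77.7), an interval that also includes the 61.7%. Lower ones were in Dcc, the contactin gene Cntn6 (3.31) and the ephrin genes Efna2 (2.11) and Efna5 (2.00), and higher ones in Sema3e and Unc5d (3.69 each).

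Listed kinase, phosphatase and second messenger genes held 15 higher and 9 lower regions, 62.5% higher (40.6 to 81.2). Among them were those of the calmodulin kinase gene Camk1d (5.57), Prkar2b and Ptprm (4.23 each) in the higher list. Map2k6 (4.76) and Adcy5 (3.92) were among those in the lower list. Some kinase genes among the hosts were not listed, such as Pak7 (lower, 5.70) and Taok3 (higher, 4.85). Listed RNA-binding genes held 4 and 2, with Rbm20 (4.23) and Rbfox1 (3.39) higher and Elavl4 (4.51) and Mbnl1 (1.73) lower. Transporter genes held 4 and 3, among them a higher region in Slc45a1 (4.23). Matrix genes held 4 and 2, with Hs3st4 (3.69) higher beside Mmp17 and Egflam (2.47) and Lama4 (2.00) lower. The share higher was 66.7% (22.3 to 95.7) for RNA-binding genes and likewise for matrix genes, and 57.1% (18.4 to 90.1) for transporters. Each interval, also that of the kinase list, includes the 61.7% of all first-intron regions.

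Chromatin regulator genes held 4 higher and 3 lower regions. Phf2 (4.20) and Kdm5b (2.52), which encode histone demethylases, Prdm16 (3.76) and the deacetylase gene Hdac9 (2.27) were higher. Cdyl2 (5.08), the remodeller gene Chd9 (3.92) and Mecom (1.73) were lower. Arid1a held no first-intron region, so the lists give no check of the knockout here. The listed zinc finger genes, which leave out Tshz3, held 6 and 4. Zfp804b (4.12) and Zfp366 (3.18) were higher, and Zswim5 (2.99) was lower beside Zbtb7c. Cadherin genes held 3 and 2, in Dchs2 and Pcdh7. Olfactory, vomeronasal and taste receptor genes held 0 and 2, in Vmn2r100 and Olfr61 (2.22), and their later introns held 3 and 0. Wnt pathway genes held 2 higher and 0 lower, in the planar polarity gene Vangl2 (3.28) and the R-spondin receptor gene Lgr6 (2.27). The share higher was 57.1% (18.4 to 90.1) for chromatin regulators, 60.0% (26.2 to 87.8) for zinc finger genes and 60.0% (14.7 to 94.7) for cadherins. It was 0% (0 to 84.2) for the receptor genes and 100% (15.8 to 100) for Wnt genes. Each interval includes the 61.7% of all first-intron regions.

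As background, 329 of 21900 RefSeq protein-coding genes, 1.50% (1.35 to 1.67), were hosts by symbol, so lists of marker genes this short would hold few in any case. Of 49 genes of homeostatic microglia, Itgb5, which encodes an integrin subunit, held a higher region (3.57). None of 42 genes of activated microglia and none of 25 genes of border and blood myeloid cells was a host. Of 41 neural genes Zbtb20 was a host, with 1 region in each list, and of 33 vascular, stromal and erythroid genes Rgs5, a pericyte gene, with a higher region (2.75). Among 33 defining markers of these cell types, Rgs5 alone was a host.

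**Figure D3:**
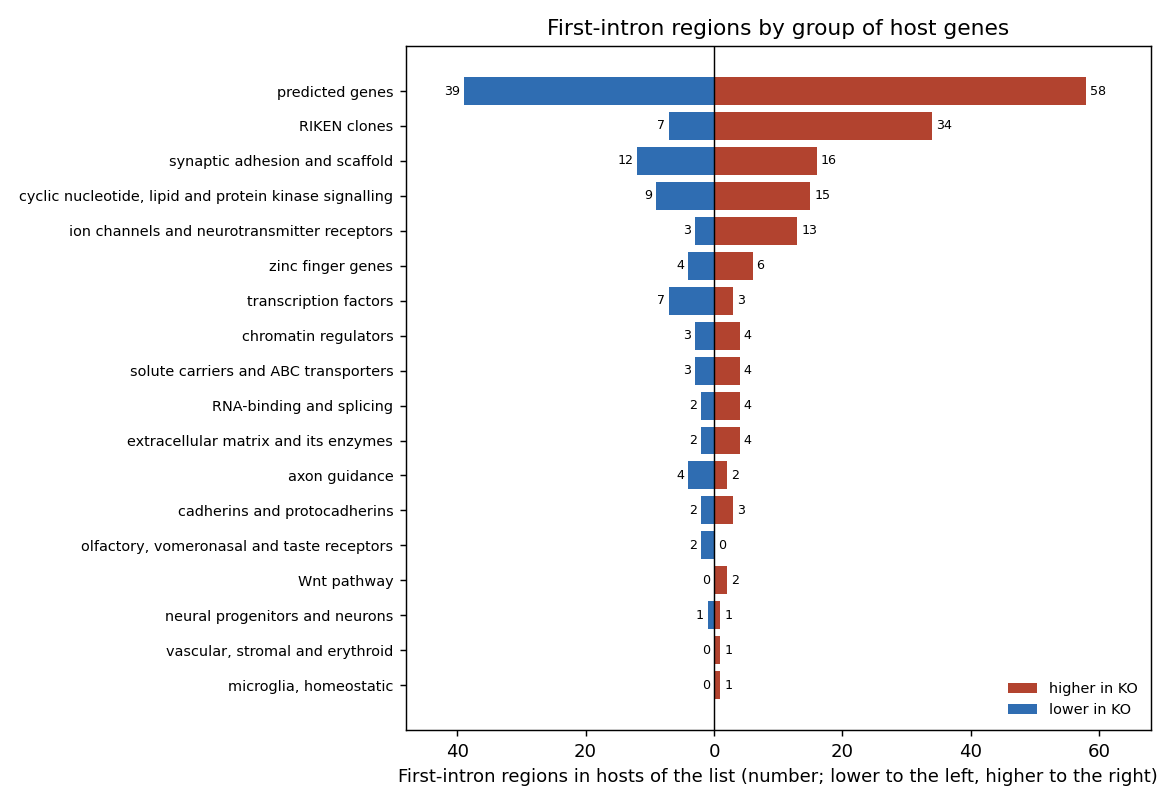
Number of first-intron regions in hosts of each gene group, lower in KO to the left and higher in KO to the right of 0. RIKEN clones (34 higher, 7 lower) and ion channel genes (13 higher, 3 lower) extend mostly to the right. The listed transcription factor genes (3 higher, 7 lower) extend to the left. Groups with no first-intron region, among others, are not drawn, and the gene lists are not complete.

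Of the 460 hosts, 44 held 2 or more first-intron regions, and 26 of these held regions of both lists. Of all 86 pairs of first-intron regions in 1 host, 42 (48.8%) were in opposite lists. Without Gm20388 these were 30 of 58 (51.7%). In later introns 186 of 384 pairs (48.4%) were in opposite lists, so such mixing was not particular to first introns. The IgLON adhesion gene Opcml had 4. Those at 27794422 (2.69), 28276721 (2.52) and 28378480 (1.85) on chromosome 9 were higher, and that at 28296760 (1.90) was lower. Kctd16 (scores 19.0, 4.85 and 1.48) and the actin-binding gene Synpo2 (2.52, 2.27 and 1.95) had 3 higher regions each. Rora, a nuclear receptor gene, and Pcdh7, a protocadherin gene, had 1 higher and 2 lower, and Kcnip4, which encodes a potassium channel partner, 2 higher and 1 lower.

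Dpp6, Sez6l, Wars2 and Wdr72 had 2 lower regions each. Further hosts with 2 higher regions included Dnajc6, Klhl29, Lsamp, Nkain3, Pard3 and Rgs6. Further hosts with 1 of each included Ablim1, Ccdc6, Cfap77, Csgalnact1, Erbb4, Fam184b, Gtdc1, Mctp1, Prkd1 and Sorcs1. In Erbb4, the neuregulin receptor gene, the lower region scored 3.45 and the higher 2.82.

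The few close pairs of first-intron regions in 1 host mostly had opposite directions, whereas over all gaps 48.8% of pairs did. Of 8 pairs with middles within 10 kb of each other, 7 were opposite, 1 was lower and 0 were higher. In Gtdc1, a glycosyltransferase gene, a higher region (1.69) and a lower region (2.99) lay 3.91 kb apart on chromosome 2. In Ccdc6 the higher (2.38) and lower (1.66) regions lay 4.28 kb apart on chromosome 10. In Zbtb20, a zinc finger repressor gene, the lower (3.07) and higher (1.95) regions lay 4.60 kb apart on chromosome 16, and in Fam184b they lay 8.61 kb apart. The pair in 1 list was in Wdr72 (2.66 and 3.92, both lower), 6.61 kb apart. The other opposite pairs were in 1700112M02Rik, Gm26804 and Gm29455. Between 10 and 100 kb, 18 of 36 pairs were opposite, and beyond 100 kb 17 of 42 were (5 of 15 without Gm20388). In later introns, 11 of 22 pairs within 10 kb were opposite, and 48.4% over all gaps. The close pairs were singled out after their directions were seen, the 8 pairs are few, and the difference from later introns was not tested.

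**Figure D4:**
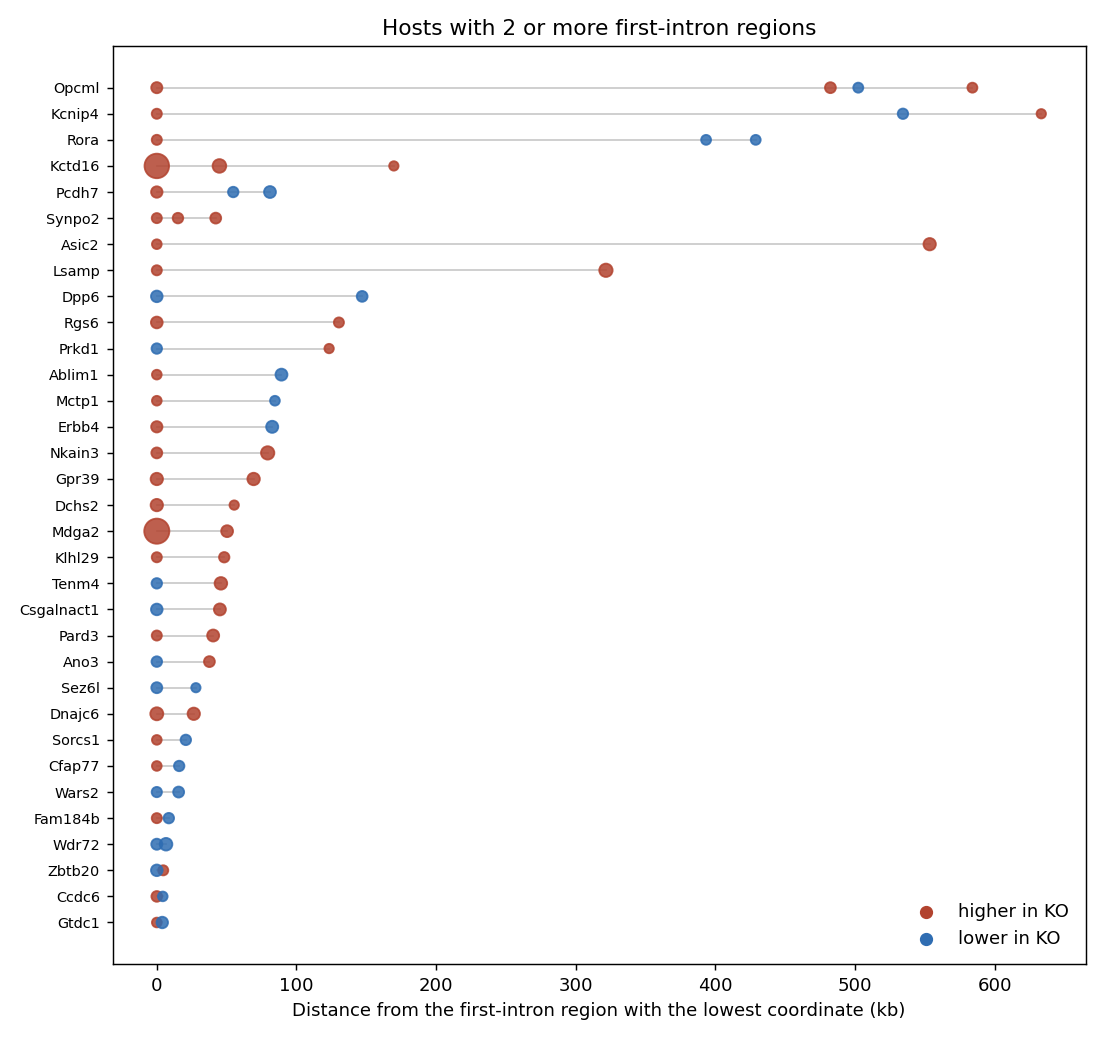
Position of each first-intron region in 33 of the 35 hosts with a gene name and 2 or more such regions, in kb from the region with the lowest coordinate. Red points are higher and blue points lower in KO, and point area grows with the authors' score up to a score of 20; regions of both colours lie in 17 of these hosts, and the closest pairs, at the bottom, are mostly of both colours.

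Of the 460 hosts, 72 (15.7%) also held a region in a later intron. In 25 of them first and later introns were in the same list, 18 higher and 7 lower, and in 22 in opposite lists. In another 25, both lists occurred within the first or the later introns. Most listed regions were higher in any case, 61.7% in first and 64.3% in later introns, and agreement within hosts was not tested. In 9 hosts a promoter region also had the start of that gene nearest. Csmd1 (promoter score 2.82) and Gm39147 (4.40) were higher in both places. In Pde1c, which encodes a phosphodiesterase, the promoter region was higher (1.95) and the first intron lower (2.99), and in Magi2 likewise (2.52 and 1.51). In March3 the promoter region was lower (2.22) and the first intron higher (2.82), and so in Gm45323 (2.22 and 3.17). Ablim1, with a lower promoter region (1.73), and Tenm4, with a higher one (2.82), held first-intron regions of both lists.

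First-intron regions had a median width of 396 bp (382 to 425) if higher and 363 bp (343 to 380) if lower, and covered 137 and 76 kb. Later-intron regions had 398 bp (390 to 407) and 354 bp (345 to 367). Higher regions were thus also the wider ones in later introns.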

How the data were processed

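CUT&Tag libraries of H3K9me3 and IgG were made from 100000 sorted cells per sample with 14 PCR cycles, per the labels' protocols. CASAVA 1.4, Bowtie2 2, FastQC and the build mm9 appear in the submitters' processing notes, and the peak caller, list threshold, annotation tool and use of IgG were points not given in the sources used here. Deposited by the authors were 1 list of regions higher and 1 of regions lower in KO, with a peak score of unstated scale, widths and signed distances in bp, per the file headers. They hold no counts or values per library, so depth is unknown.

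Hosts and intron numbers were parsed from the annotation. In 1 row a date replaced the symbol, which was read from the transcript name. All 275 transcripts of hosts that had the nearest start and matched RefSeq overlapped the GRCm38.p6 gene of that name, so coordinates were read as GRCm38 and not converted. The build of the regions themselves is uncertain, because the notes name mm9. If mm9 regions were annotated with GRCm38 transcripts, the hosts, intron numbers, distances and overlaps given here would be misplaced. Of 460 hosts, 398 matched RefSeq by symbol and 4 by synonym, and 312 (67.8%) had a promoter sequence, too few to compare promoter content over the hosts.

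Shares have exact Clopper-Pearson 95% intervals and medians order-statistic intervals, both covering counting error only. Regions of 1 host are not independent. Members and gene lists were chosen with earlier results of these data known. Gene lists are not complete, and a gene can be in more than 1 list. Named hosts were the 10 with the highest score per list, all with 2 or more first-intron regions (predicted genes and RIKEN clones counted, and named only where said), the 3 highest per list with 1 intron, the 3 nearest and 3 farthest, and up to 4 per gene list; some genes were added to these. Some items that the rule names are not reported here, and counts include them. Scripts ran in Python 3.11.15 with pandas 2.3.3, numpy 2.4.6, scipy 1.17.1 and matplotlib 3.10.9, and were tested on simulated data.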

Additional observations from a re-analysis of the deposited data

How the results depend on the processing

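The 5 alternatives were a score at or above the list's median, each host counted once per list, autosomes alone, no predicted or RIKEN hosts, and only regions with the host's start nearest. Of 62 recomputed values, 55 stayed within the interval of the main value, among them every share of first-intron regions in the higher list and every median distance. Without predicted and RIKEN hosts, the share with the host's start nearest was 63.1%, first introns made up 22.2% of intronic regions in the higher list, and 6.33% of regions had a host with 1 intron. With only regions nearest to the host's start, first introns made up 36.0% of higher and 36.7% of lower intronic regions, since that choice removes more later-intron regions. The median intron number without predicted and RIKEN hosts was 9 for higher and 10 for lower members. GC, CpG and repeat content of the regions was not run, for want of a genome. No paired analysis was possible because each group had 1 library and the lists give no value per library. Depth is unknown, and small groups limit most shares.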
